A study of Saccharomyces cerevisiae with 10 samples.

Results

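Peaks of accessible chromatin on Day 10 of a laboratory evolution experiment in budding yeast, 3 days after selection ended, were compared with those of the initial population on Day 0. The comparison took in all 3515 peaks that were merged over the days of the study, each measured in 2 libraries of Day 0, called d0b and d0c, and 2 libraries of Day 10, called d10 and d10p, out of 10 libraries in all. The strain, WP35, is a haploid MATalpha strain of the W303 background with 1 copy of a YFP reporter under the GAL1 promoter at the HO locus, and every library of both days carries it. According to the labels the reporter locus reads HO::HIS3::pGAL1-YFP, whereas the methods name the marker there HIS5. The methods also give the strain mutant alleles of LEU2, TRP1, CAN1, URA3, ADE2 and HIS3. During the first 7 days of the original experiment the cells with the lowest reporter expression were collected by sorting every day and regrown, and from then on the population grew without sorting. All libraries came from frozen stocks of a single evolution replicate, L3, which was revived on glucose plates, grown for 22 h in 0.1% mannose, a carbon source that does not induce the GAL genes, and then for 24 h in 0.1% mannose with 0.2% galactose. The spread between the 2 libraries of a day is thus not the spread between independently evolved populations.

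In ATAC-seq the Tn5 transposase inserts sequencing adaptors into DNA that is not covered by nucleosomes or other proteins, so that a peak holds more reads where chromatin is less compact. In yeast most such sites are the nucleosome-depleted regions in front of genes. GAL genes are switched on in galactose when the activator Gal4 is freed from its inhibitor Gal80 by the sensor Gal3, and they are repressed by glucose.

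To show the places of peaks that stayed away from their level on Day 0, reference sequences were read from the RefSeq R64 assembly. That assembly is of S288C and not of W303. The sequences are those at the 3 peaks called on Day 10 (LEU2, FRT1 and YML099W-A) and at the native GAL1-GAL10 promoter. The selected reporter is driven by a further copy of the GAL1 promoter, placed at HO. Positions are on R64. The LEU2 and FRT1 windows reach from 250 bases before the coding start to 50 bases into the gene, on the strand of the gene. For YML099W-A, which has no entry in the RefSeq table used here, 300 bases around the centre of the peak are shown on the forward strand. The GAL1-GAL10 window holds the Gal4 matches between both genes with 20 bases on either side. Capitals mark matches on either strand to any of these motifs: the TATA box (TATAAA), the site of Msn2 and Msn4 (AGGGG), the site of Reb1 (TTACCCG), the site of Gcn4 (TGACTC), the site of Aft1 (TGCACCC), the site of Hsf1 (GAANNTTC), the site of Gal4 (CGG, any 11 bases, CCG) and the site of Leu3, which was added after the LEU2 result was seen (CCGG, any 2 bases, CCGG).
LEU2, chrIII:91074-91373, forward strand: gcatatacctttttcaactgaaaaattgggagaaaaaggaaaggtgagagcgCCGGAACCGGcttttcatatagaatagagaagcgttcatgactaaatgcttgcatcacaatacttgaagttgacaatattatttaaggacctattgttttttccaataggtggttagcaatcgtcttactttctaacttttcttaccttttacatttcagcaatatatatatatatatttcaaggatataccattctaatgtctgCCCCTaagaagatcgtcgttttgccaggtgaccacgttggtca
FRT1, chrXV:924991-925290, reverse strand: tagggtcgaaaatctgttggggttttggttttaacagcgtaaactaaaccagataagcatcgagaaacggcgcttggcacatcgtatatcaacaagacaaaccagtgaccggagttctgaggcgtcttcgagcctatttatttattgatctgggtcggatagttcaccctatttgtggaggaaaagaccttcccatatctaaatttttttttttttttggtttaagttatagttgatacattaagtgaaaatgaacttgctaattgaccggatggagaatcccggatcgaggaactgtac
YML099W-A peak, chrXIII:73583-73882, forward strand: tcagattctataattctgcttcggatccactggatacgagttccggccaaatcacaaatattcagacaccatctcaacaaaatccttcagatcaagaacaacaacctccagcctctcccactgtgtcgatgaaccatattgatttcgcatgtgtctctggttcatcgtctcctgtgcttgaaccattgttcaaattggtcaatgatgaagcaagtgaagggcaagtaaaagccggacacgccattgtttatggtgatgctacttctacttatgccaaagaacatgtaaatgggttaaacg
GAL1-GAL10, chrII:278548-278641, forward strand: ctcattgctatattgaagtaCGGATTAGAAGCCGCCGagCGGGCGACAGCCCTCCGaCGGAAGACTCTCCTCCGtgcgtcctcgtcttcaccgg

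The LEU2 window held 1 match to the motif of Leu3, the activator of leucine synthesis genes, which 0.14% of 6430 promoter windows of the same length hold. It also held 1 match to AGGGG on the other strand, inside the coding start, which 21.1% of promoter windows hold. None of these motifs matched in the FRT1 window or in the YML099W-A window. The GAL1-GAL10 window held 3 matches to the Gal4 motif, which 1.31% of the 300-base promoter windows hold. These matches are descriptions of the letters and not of binding.

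The Day 0 libraries held 10772510 (d0b) and 14296616 (d0c) counts in peaks, and the Day 10 libraries 9446104 (d10) and 15068275 (d10p). The lowest count of any peak in these 4 libraries was 84. d10p was sequenced in 2 runs and the other 3 libraries in 1 run. Counting alone would give a chi-square of about 1 per peak between the replicates of a day, and it was 25.8 on Day 0 and 20.9 on Day 10. Values are given as CPM, the count of a peak scaled to the size of its library, with TMM normalization, which sets library sizes so that the bulk of peaks does not change.

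Genome-wide, the distances between Day 0 and Day 10 libraries overlapped with those between replicates, and also with those between Day 0 and the days of selection. As a measure of distance, the root mean square of the log2 difference was taken over all peaks. It was 0.17 between the 2 libraries of Day 0 and also 0.17 between the 2 libraries of Day 10. d0b and d10 were only 0.14 apart, less than the distance of the replicates of either day. The distance was 0.26 between d0b and d10p, again 0.26 between d0c and d10, and 0.40 between d0c and d10p. One pair across the days thus lay inside the replicate spread and 3 lay outside it. Each Day 10 library was further from each Day 7 library, by 0.41 to 0.59, than from either Day 0 library. However, the Day 0 libraries were only 0.23 to 0.39 from those of Day 7 and 0.19 to 0.35 from those of Day 3. d0c was nearer to d7c (0.23) than to d10, and nearer to d7a (0.27) than to d10p.

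**Figure D1:**
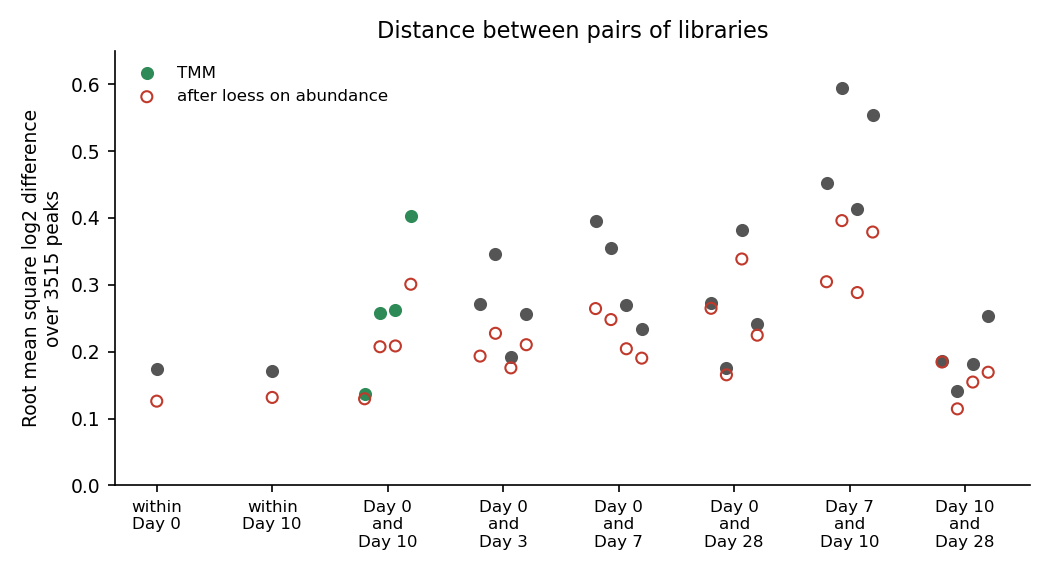
Distance between pairs of libraries, as the root mean square log2 difference over all peaks, within Day 0, within Day 10 and between days. Filled points are TMM-normalized values (green for Day 0 against Day 10) and open points are values after loess normalization on peak abundance. The 4 pairs of Day 0 with Day 10 ran from 0.14 to 0.40, and the 4 pairs of Day 7 with Day 10 from 0.41 to 0.59. Those of Day 0 with Day 7 ran from 0.23 to 0.39.

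The quasi-likelihood test of edgeR called 3 of the 3515 peaks different on Day 10 from Day 0 (0.0853%), with a threshold of 0.05 on the adjusted p. They were the peaks of LEU2 and FRT1, which had higher normalized counts on Day 10 (0.0569%), and of YML099W-A, which had lower ones (0.0284%). The sequencing data used here are ATAC-seq only, so the DNA copy number at these peaks was not measured and was not tested. The same edgeR test called 1585 peaks (45.1%, with 20.5% higher and 24.6% lower) on Day 7, the last day of selection, and 310 peaks (8.82%) on Day 28, each against the same Day 0 libraries. These counts do not rank the days by distance from Day 0. The median absolute log2 fold change was 0.16 on Day 10, 0.19 on Day 7 and 0.14 on Day 28. DESeq2 called 879 peaks (25.0%) on Day 10 and 253 (7.2%) on Day 28. The median residual degrees of freedom also differed between the edgeR fits, at 8.72 for Day 10, 13.6 for Day 7 and 17.8 for Day 28. Between Day 7 and Day 10, 2467 peaks (70.2%) were called, 1314 higher (37.4%) and 1153 lower (32.8%) on Day 10.

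A p that misses the threshold does not show that a peak returned, so the interval of each change was used. For Day 7 against Day 0 the 95% interval of the log2 fold change lay within 0.5 of 0 for 2472 peaks (70.3%) and within 0.25 for 992. By these counts Day 10 was no nearer to Day 0 than Day 7 was. They also depend on the width of the intervals, with a median SE of 0.076 for Day 7 and 0.094 for Day 10. On Day 10 the interval lay within 0.5 of 0 for 2432 peaks (69.2%) and within 0.25 of 0 for 663 peaks. The latter count was 156 without d0b, 202 without d0c, 217 without d10, 341 without d10p and 1227 after loess. The median absolute log2 fold change was 0.16, and 174 peaks (4.95%) had one of at least 0.5, of which 121 were higher and 53 lower on Day 10. This count was 428 without d0b and 412 without d10, but 65 without d0c, 52 without d10p and 72 after loess. The spread of changes across peaks, after that between replicates was taken off, had an SD of 0.22 on the log2 scale, against 0.29 for Day 7 and 0.21 for Day 28. After loess on abundance, described further on, the order changed, with 0.18 for Day 10, 0.19 for Day 7 and 0.21 for Day 28, and the differences among days were not tested.

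The number of calls differed widely between tests and with the libraries used. The libraries of the 2 days did not overlap at 2501 peaks (71.2%), with both Day 10 libraries above both Day 0 libraries at 1160 (33.0%) and below them at 1341 (38.2%). The fourth lowest adjusted p from edgeR was 0.0574, and 632 peaks (18.0%) were under 0.1. At an unadjusted p under 0.05 there were 1114 peaks. DESeq2 called 879 peaks (25.0%), 484 higher (13.8%) and 395 lower (11.2%), and an edgeR fit of all 10 libraries together called 508 (14.5%), 267 higher (7.6%) and 241 lower (6.86%). These 2 lists shared 495 peaks in the same direction, which is 56.3% of the DESeq2 list and 97.4% of the other, and each held all 3 peaks of the edgeR test of the 4 libraries. Leaving out d0b gave 785 calls and leaving out d10 gave 882, whereas leaving out d0c gave 32 and leaving out d10p gave 38. All 3 peaks were among the calls in each of these. With d0c and d10p both left out, d0b and d10 differed by a median of 0.082 on the log2 scale, against 0.26 between d0c and d10p.

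The changes were graded by the abundance of the peak. Across the 3515 peaks the log2 fold change of Day 10 against Day 0 had a Pearson correlation of -0.59 with mean abundance, and that of Day 7 one of 0.73, both of which rest on the same Day 0 libraries. In the 352 peaks with the lowest abundance the median log2 fold change on Day 10 was 0.27, and in the 352 with the highest it was -0.28. Within days, the libraries also differed along this axis. The deviation of a library from the mean of the 4 had a correlation with abundance of 0.64 for d0c, 0.25 for d0b, -0.31 for d10 and -0.63 for d10p. The 352 most abundant peaks held 39.2% of the counts in d0c, 35.8% in d0b, 35.4% in d10 and 33.2% in d10p. How much of the difference between days comes with this gradient was examined with a loess offset on abundance, which brought the correlation to 0.035 and the SD of changes to 0.18. edgeR then called 3 peaks, all higher on Day 10, of which LEU2 and FRT1 were among the first 3. The remaining call was the TIM9 peak, which also covers the start of URA3.

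**Figure D2:**
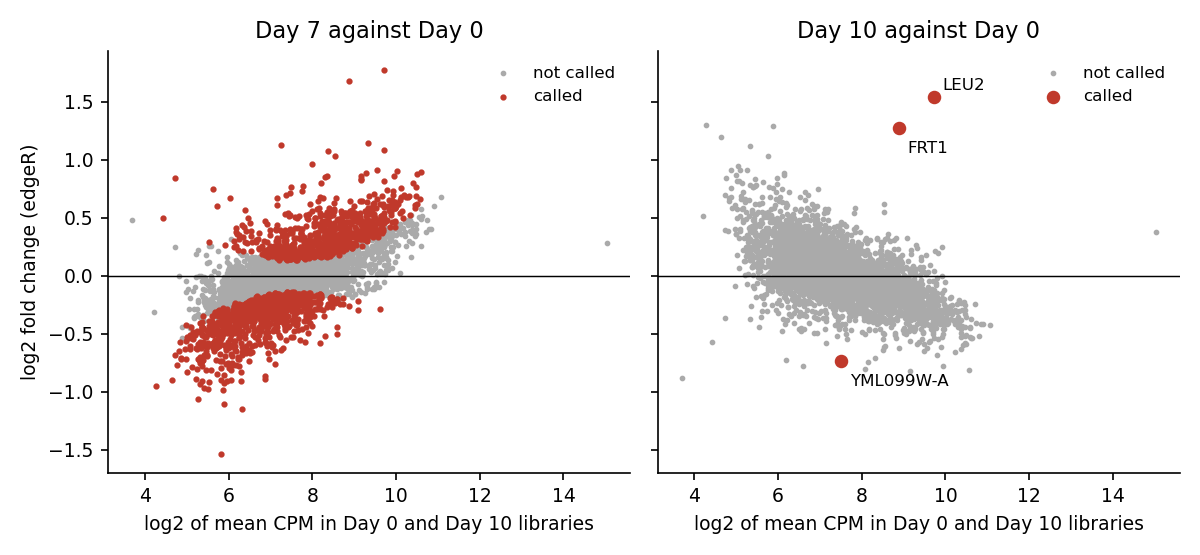
The log2 fold change of each of the 3515 peaks against the log2 of its mean CPM, for Day 7 (left) and Day 10 (right) against Day 0, with peaks that edgeR called in red and the others in grey. The cloud slopes upward on Day 7, with 1585 called peaks, and downward on Day 10, with 3 called peaks. Of these, LEU2 and FRT1 stand apart from the cloud. YML099W-A (-0.73) does not, as peaks that were not called fell further, such as NNF2 (-0.80).

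The LEU2 peak rose most. It lies on chromosome III from 90579 to 92893 and covers the starts of LEU2, the beta-isopropylmalate dehydrogenase of leucine synthesis, and of the leucine tRNA gene SUP53, and 47.3% of its length is LEU2 itself (91324 to 92418). On Day 0 it had 416.7 CPM in d0b and 451.2 CPM in d0c, and on Day 10 it had 1307 CPM in d10 and 1191 CPM in d10p. The groups do not come near each other. The level on Day 10 was 2.92 times that of Day 0, which is 1.54 on the log2 scale (standard error, SE, 0.15, edgeR adjusted p = 0.00485). It was at 1684 and 1740 CPM on Day 3, at 1513 and 1459 CPM on Day 7 and at 1222 and 1407 CPM on Day 28. All 8 libraries after Day 0 thus lay above both libraries of Day 0. Between Day 7 and Day 10 the log2 fold change was -0.24 (SE 0.13, edgeR adjusted p = 0.112), which was not called. The sequence of 5.41% of the 100-base windows in the peak also occurs elsewhere in the reference genome.

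FRT1 (YOR324C), the gene of a membrane protein of the endoplasmic reticulum and a substrate of calcineurin, had the second largest called rise. Its peak on chromosome XV (924661 to 925823) fills the space between FRT1 and MYO2, the gene of a type V myosin motor, and covers the start of both. It measured 284.8 CPM in d0b, 273.3 CPM in d0c, 705.8 CPM in d10 and 627.7 CPM in d10p. The Day 10 libraries were again well above those of Day 0. The level rose 2.42 times (1.28 on the log2 scale, SE 0.11, edgeR adjusted p = 0.0034). On Day 7 the log2 fold change against Day 0 had been 1.68 and on Day 28 it was 1.45. From Day 7 to Day 10 the peak fell by 0.42 on the log2 scale (SE 0.11, edgeR adjusted p = 0.00249), which left it far from its level on Day 0.

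The YML099W-A peak (chromosome XIII, 73301 to 74165) was the only called fall. It is named after an open reading frame between TSL1, a subunit of the trehalose synthase complex, and ARG81, a regulator of arginine metabolism, and 71.7% of its length lies within the 3' part of TSL1. It had 211.8 CPM in d0b and 246.3 CPM in d0c, against 141.1 CPM in d10 and 131.7 CPM in d10p. The level on Day 10 was 60.2% of that on Day 0 (-0.73 on the log2 scale, SE 0.087, edgeR adjusted p = 0.0206). In contrast with the other 2 peaks it moved further away after selection ended, from a log2 fold change of -0.38 on Day 7 to -0.73 on Day 10, and this step was called (log2 fold change of Day 10 against Day 7 -0.37, adjusted p = 0.000157 from edgeR). On Day 28 it was at -0.89. After loess on abundance the value was -0.75, but it was no longer called (adjusted p = 0.0579 from edgeR), and after loess on GC content and length the adjusted p was 0.144.

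**Figure D3:**
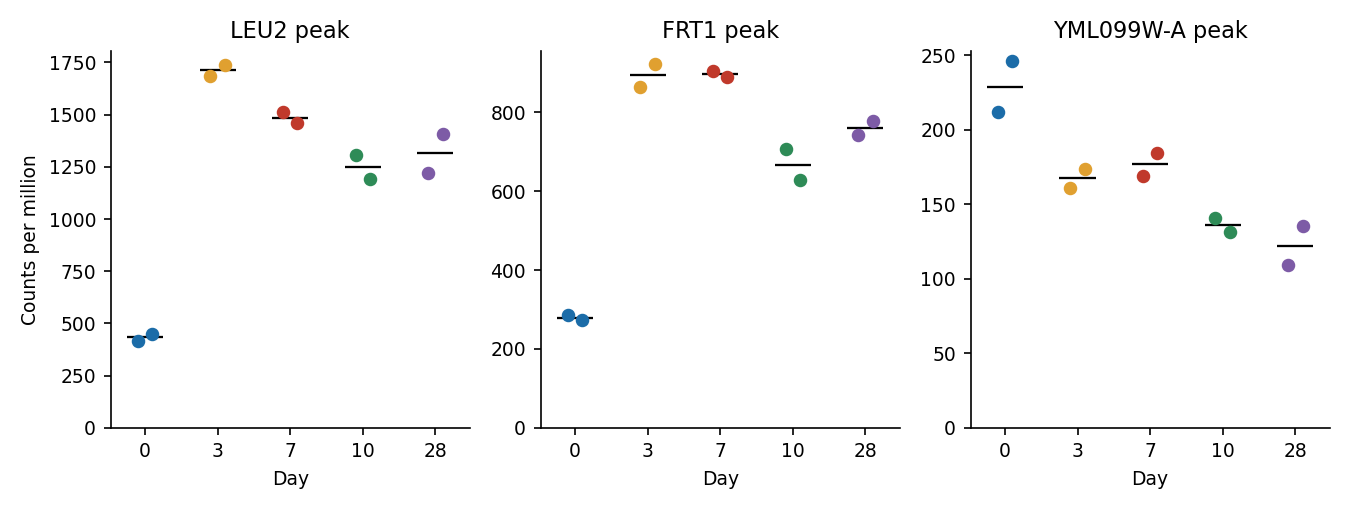
CPM of the 3 called peaks in each of the 10 libraries by day, with 1 point a library and a bar at the mean of the day. The LEU2 and FRT1 peaks were higher in all libraries after Day 0, and on Day 10 the LEU2 peak was at 1307 and 1191 CPM against 416.7 and 451.2 CPM on Day 0. The YML099W-A peak was lower in all later libraries.

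None of the 2 nearest peaks on either side of these 3 was called by edgeR. Next to the LEU2 peak, the NFS1 peak 1151 bases away had a log2 fold change of 0.31 (adjusted p = 0.0685 from edgeR), and the YCL020W peak 5724 bases away on the other side one of 0.39 (adjusted p = 0.149 from edgeR). The peaks flanking FRT1 were at 0.42 (PRO2) and -0.25 (SNC2), and those flanking YML099W-A at -0.35 (YML101C-A) and 0.047 (ARG81). LEU2 and FRT1 were called under all 14 alternatives of processing, with log2 fold changes of 1.48 to 1.86 for LEU2 and 1.197 to 1.47 for FRT1. YML099W-A was called under 12 of 14, with values of -0.84 to -0.61.

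To ask which peaks had not returned, the 1585 peaks called on Day 7 against Day 0 were followed. The comparisons share the Day 0 libraries, so that the counts are descriptions. Only the same 3 peaks were still called in the direction of Day 7, and none was called in the opposite direction by edgeR with all 4 libraries. Of the others, 995 (62.8%) were back, in that they were not called and had an interval within 0.5 of 0, and 587 could be put in neither class. This bound is wider than the median Day 7 changes, 0.35 and -0.34, so a peak could count as back with little movement. GAL7 was counted as back at -0.35 on Day 7 and -0.26 on Day 10 (95% interval -0.45 to -0.076). Its step between these days was not called (edgeR adjusted p = 0.301). The share that was back was 44.7% without d0b and 43.6% without d10 (735 and 691 peaks), 67.6% without d0c and 67.1% without d10p (1609 and 1064 peaks), and 83.9% after loess (1045 peaks). In 221 of these 587 the interval lay above 0 and in 169 below it, so that a return was not shown for them.

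As a group, the peaks of Day 7 had gone past their level of Day 0. The 719 peaks that were higher on Day 7 had a median log2 fold change of 0.35 on that day, -0.19 on Day 10 and -0.049 on Day 28. The 866 peaks that were lower had medians of -0.34, 0.15 and 0.059. The 1930 peaks not called on Day 7 had a median of 0.021 on Day 10. After loess on abundance the Day 10 medians of the first 2 groups were -0.074 and 0.042, of the same sign but nearer to 0. With other fits some of these peaks were called past Day 0: DESeq2 called 416 of its 1739 departed peaks (49.5% of all peaks) in the opposite direction on Day 10 and 69 in the same direction, and the fit of all 10 libraries called 166 and 28 of 1203 (34.2% of all peaks). With edgeR, leaving out d0b gave 72 peaks that had not returned and 356 called in the opposite direction, and leaving out d10 gave 44 and 456. Leaving out d0c gave 3 and 25, and leaving out d10p gave 9 and 17.

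**Figure D4:**
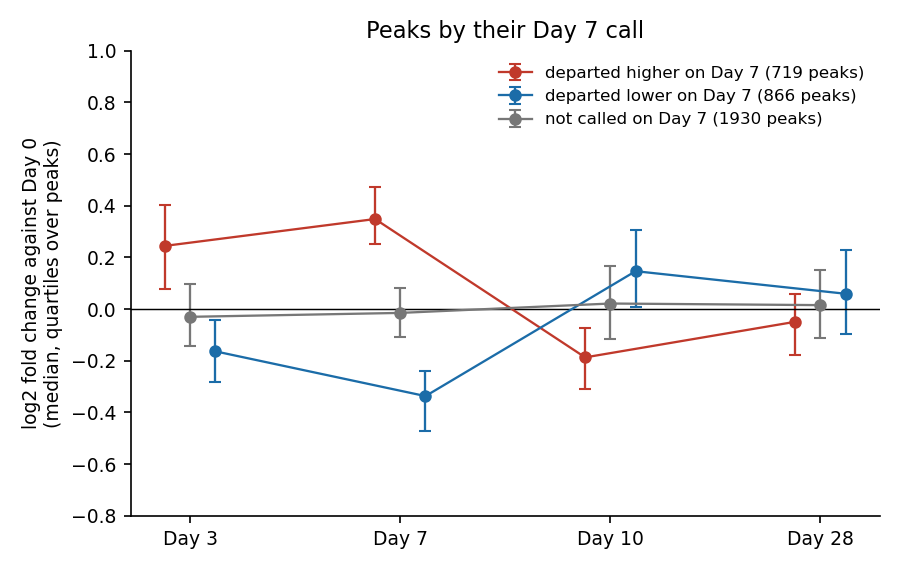
Median log2 fold change against Day 0 on Days 3, 7, 10 and 28 for peaks that edgeR called higher (719, red), lower (866, blue) or not at all (1930, grey) on Day 7, with bars from the lower to the upper quartile over peaks. The red median goes from 0.35 on Day 7 to -0.19 on Day 10 and the blue one from -0.34 to 0.15, and the 3 groups lie closer together again on Day 28. The Day 0 libraries are shared by all 4 days.

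Among the peaks that were back, those with the largest change on Day 7 were of ADH2, UBP5, VHS3, ATG10 and ADR1. ADH2 is the glucose-repressed alcohol dehydrogenase that uses up ethanol, and its peak had 661.8 and 708.0 CPM on Day 0, 1552 and 1486 CPM on Day 7, and 636.3 and 585.5 CPM on Day 10. The log2 fold change on Day 10 was -0.15 (95% interval -0.43 to 0.14). UBP5, a ubiquitin protease, went from 157.8 and 165.1 CPM to 368.2 and 338.1 CPM on Day 7, and was at 153.7 and 138.8 CPM on Day 10. Both peaks had fallen back by more than 1 unit on the log2 scale in 3 days, with adjusted p = 1.3e-06 for ADH2 and 5.07e-08 for UBP5 from edgeR for Day 10 against Day 7.

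VHS3, an inhibitor of the phosphatase Ppz1, had a log2 fold change against Day 0 of 0.96 on Day 7 and of -0.013 on Day 10. Peaks that had been low on Day 7 came back as well. The ATG10 peak, at an enzyme of autophagy, had 66.26 and 62.22 CPM on Day 0, 33.74 and 35.31 CPM on Day 7, and 70.16 and 69.37 CPM on Day 10. At the end of ADR1, the gene of the activator of ADH2, a peak had 127.0 and 124.9 CPM on Day 0, 69.19 and 69.24 CPM on Day 7, and 103.8 and 114.0 CPM on Day 10. Both Day 10 libraries of ADR1 lay below both of Day 0, and the log2 fold change of -0.19 was not called (adjusted p = 0.152 from edgeR).

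Since the selection acted on a GAL1 promoter, each peak of the GAL network was followed. None was called between Day 10 and Day 0 by edgeR in the 4 libraries, although the promoter peaks of GAL7, GAL1-GAL10 and GAL2 were lower in both Day 10 libraries. GAL7, the transferase of the pathway, had 351.0 and 331.3 CPM on Day 0 and 270.2 and 290.3 CPM on Day 10 (-0.26 on the log2 scale, SE 0.082, edgeR adjusted p = 0.0866). The GAL10 peak, which covers the starts of both GAL1, the galactokinase, and GAL10, the epimerase, had 429.6 and 455.7 CPM against 396.4 and 350.4 CPM. Its log2 fold change was -0.23 (SE 0.098, edgeR adjusted p = 0.152). Reads were mapped to a reference without the reporter, so those from its GAL1 promoter were not separated from those of this peak. The promoter peak of GAL2, the galactose permease, had 409.0 and 410.5 CPM against 347.0 and 334.9 CPM (-0.25 on the log2 scale, edgeR adjusted p = 0.0977). The libraries of the 2 days did not overlap at these 3 peaks, as at 71.2% of all peaks.

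DESeq2 called all 3 of them lower on Day 10, with adjusted p = 0.00452 for GAL7, 0.038 for GAL10 and 0.00428 for the GAL2 promoter. The edgeR fit of all 10 libraries called GAL7 (adjusted p = 0.0269) and the GAL2 promoter (adjusted p = 0.0463). With loess on abundance their log2 fold changes were nearer to 0, at -0.17 for GAL7, -0.10 for GAL10 and -0.13 for the GAL2 promoter. GAL7 was at -0.35 on Day 7 and at -0.31 on Day 28, when it was called (adjusted p = 0.0472 from edgeR), whereas GAL10 was at 0.05 on Day 28.

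For the regulators of the network the intervals included 0. GAL80 had 168.4 and 146.7 CPM on Day 0 and 155.5 and 172.5 CPM on Day 10, with overlapping libraries and a log2 fold change of 0.082 (95% interval -0.11 to 0.28), after -0.40 on Day 7. The peak that covers the start of GAL3 and of TRP1, assigned to YDR008C, was at 0.056 (95% interval -0.20 to 0.31), and the one that covers the start of GAL4, assigned to YPL247C, at 0.13 (95% interval -0.13 to 0.38). A shorter peak within GAL2, which was at -1.53 on Day 7, had 64.96 and 54.26 CPM on Day 0 and 45.81 and 61.38 CPM on Day 10, with overlapping libraries (-0.12 on the log2 scale, 95% interval -0.51 to 0.27). The peaks over the starts of the Gal4 targets PGM2, a phosphoglucomutase, and GCY1 were at -0.47 (adjusted p = 0.0871) and -0.21 (adjusted p = 0.259) from edgeR. The 95% interval for PGM2 was -0.81 to -0.13, and the libraries of the days did not overlap. PGM2 was called lower by DESeq2 (adjusted p = 0.00756) and by the edgeR fit of all 10 libraries (adjusted p = 0.0331). After loess on abundance it was at -0.29 and was not called. GCY1 was called by neither DESeq2 nor the fit of all 10 libraries. With 1 library left out, the value for PGM2 was -0.62 without d0b (edgeR adjusted p = 0.00442) and -0.61 without d10 (0.024), which were called, and -0.30 without d0c (0.514) and -0.33 without d10p (0.624), which were not. In such fits the spread of the day with a single library is taken from the other day.

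Of the 19 gene lists examined, only amino acid synthesis held a peak called by edgeR, which was LEU2. Counts of DESeq2 calls and medians are given next, and over all peaks DESeq2 called 13.8% higher and 11.2% lower and the median log2 fold change was 0.011. Lists of genes for stress and for growth on other carbon sources than glucose had the lowest medians. In glycogen and trehalose metabolism DESeq2 called 0 of 11 peaks higher and 6 lower, with a median of -0.32. A peak of NTH1, the neutral trehalase, classed as transcription end, had 424.8 and 454.1 CPM on Day 0 and 332.5 and 321.9 CPM on Day 10. Its log2 fold change of -0.41 was called by DESeq2 (adjusted p = 1.92e-05) and not by edgeR (adjusted p = 0.0665). On Day 7 the NTH1 peak had been at -0.50, and the step to Day 10, 0.080, was not called (edgeR adjusted p = 0.28). PIG2, a regulator of glycogen synthase, was at -0.38 and GIP2, a subunit of the phosphatase Glc7, at -0.60, and GIP2 was the one of the 3 that DESeq2 did not call.

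In gluconeogenesis, glyoxylate and acetate use the median was -0.32, with 0 of 17 called higher and 5 lower by DESeq2. This list had the highest Day 7 median, 0.42, and 13 of its peaks were called higher on that day by edgeR. ICL1, the isocitrate lyase of the glyoxylate cycle, had 346.7 and 409.5 CPM on Day 0 and 311.9 and 255.4 CPM on Day 10 (log2 fold change -0.40). JEN1, the lactate transporter, was at -0.53 and ALD6, an aldehyde dehydrogenase, at -0.44, and neither was called by any of the 3 fits. Peaks of these lists are abundant, with median log2 CPM of 9.26 and 8.61 against 7.45 over all peaks, and after loess on abundance the medians were -0.087 for gluconeogenesis and -0.20 for glycogen and trehalose.

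Heat shock and stress proteins had 2 of 23 peaks called higher and 9 lower by DESeq2 and a median of -0.26. GRE1, a stress-induced hydrophilin, went from 1007 and 1504 CPM on Day 0 to 870.8 and 578.1 CPM on Day 10 (log2 fold change -0.78, adjusted p = 0.0112 from DESeq2 and 0.0871 from edgeR). CTT1, the cytosolic catalase, went from 778.0 and 1056 CPM to 686.6 and 491.8 CPM (log2 fold change -0.62, adjusted p = 0.0106 from DESeq2 and 0.0896 from edgeR). In both peaks the days did not overlap, but d0b was nearer to d10 than to d0c. HSP32, a chaperone gene near a chromosome end, was at -0.57 and was not called.

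Cytosolic ribosomal protein genes had a median of -0.19, with 2 of 75 peaks called higher and 18 lower by DESeq2. On Day 7 they had a median of 0.24, with 42 called higher by edgeR. RPL11B was at -0.47 (adjusted p = 0.00131 from DESeq2). RPL43B, whose peak also covers the starts of IRT1 and SFC1, was at -0.37. A low-abundance peak at the end of RPL19A was at 0.75 (adjusted p = 0.00049 from DESeq2). Ribosome biogenesis and rRNA processing genes had a median of the other sign, 0.14, with 17 of 58 called higher and 2 lower by DESeq2. The examples with the largest change were DBP8, an RNA helicase (0.72), ENP1 (0.66) and NOG2 (0.61), which act in the maturation of the small and large subunits, and DESeq2 called all 3. DBP8 had 85.0 and 68.37 CPM on Day 0 and 111.7 and 135.9 CPM on Day 10. Biogenesis peaks are of lower abundance, with a median log2 CPM of 6.86 against 8.24 for ribosomal protein genes, and after loess the medians were 0.063 and -0.11. Mitochondrial ribosomal protein genes were at a median of 0.007, with 2 of 44 called higher and 4 lower by DESeq2, and respiratory chain genes at -0.08, with 1 of 30 higher and 6 lower.

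Flocculins, the cell wall proteins that make yeast cells stick to each other and to surfaces, had the highest median of the lists, 0.36, with 6 of 11 peaks called higher and 0 lower by DESeq2. On Day 7 the same list was at -0.45. The FLO10 peaks had 40.0 and 32.06 CPM on Day 0 and 66.3 and 78.1 CPM on Day 10 in one case (log2 fold change 1.03, adjusted p = 5.47e-08 from DESeq2 and 0.0609 from edgeR), and 16.5 and 14.46 CPM against 28.61 and 40.69 CPM in another (1.197), and a peak at the FLO10 promoter was at 0.14. FLO11, needed for invasive and biofilm growth, was at 0.87 by a peak at its end, with 58.57 and 43.86 CPM against 79.15 and 103.6 CPM. At these peaks other than the promoter peak of FLO10 the days did not overlap. Flocculin peaks are the least abundant peaks of any list, with a median log2 CPM of 6.28, and had a median of 0.21 after loess. FLO genes are similar to each other in sequence, and how reads with several alignments were treated is not given in the sources used here.

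Of the cell wall genes TIR, DAN and PAU, 7 of 22 peaks were called higher and 1 lower by DESeq2, with a median of 0.13 that was -0.001 after loess. TIR4 had 42.76 and 27.31 CPM on Day 0 and 70.07 and 97.64 CPM on Day 10 (1.295 on the log2 scale, adjusted p = 0.0104 from DESeq2 and 0.0665 from edgeR), DAN4 was at 0.73 and DAN1 at 0.68. These are weak peaks classed as transcription end (TIR4) or exon (DAN4 and DAN1), and none covers the start of a gene. Purine and pyrimidine synthesis genes had a median of 0.11, with 6 of 16 called higher and 1 lower by DESeq2. IMD2, an IMP dehydrogenase, was at 0.91 by a weak peak classed as exon (adjusted p = 0.00192 from DESeq2). A weak peak at the end of ADE2 was at 0.75 (its peak over the start of the gene was at 0.009) and FUR1 at 0.50. In amino acid synthesis the median was -0.001, with 10 of 49 called higher and 9 lower by DESeq2, and after LEU2 the members with the largest changes were MET5 (0.84) and ARG2 (0.63). The MET5 peak is weak, classed as exon, and covers no gene start.

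For sugar uptake and its control the medians lay close to that of all peaks. Hexose transporters and sensors had a median of -0.009, after 0.33 on Day 7 when 8 of 11 peaks were called higher by edgeR, with 1 called higher and 1 lower by DESeq2 on Day 10. HXT5, a transporter of slow growth, was at -0.55, HXT8 at 0.30 and the glucose sensor SNF3 at 0.24, the last 2 by peaks classed as exon. Regulators of glucose repression were at 0.006, with SNF4, a subunit of the Snf1 kinase, at 0.36, the activator SIP4 at -0.35 and ADR1 as above. Glycolysis and fermentation genes were at -0.011, with the glucokinase GLK1 at -0.44, the hexokinase HXK1 at -0.40 and the pyruvate decarboxylase PDC5 at 0.27. In the 3 lists no more than 1 peak was called by DESeq2 in each direction.

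tRNA genes had a median of -0.029 over 189 peaks, with 15 called higher and 17 lower by DESeq2, and the interval of 160 of them lay within 0.5 of 0. The largest changes were those of tV(CAC)H (0.81), tI(AAU)I2 (0.62) and tA(AGC)K2 (-0.58). Histone genes had a median of -0.14 over 6 peaks, which turned to 0.13 after loess, with HTA2 at 0.78, HHT2 at -0.36 and the variant HTZ1 at -0.28. The HTA2 peak is weak, classed as transcription end, and covers no gene start. Phosphate uptake genes likewise went from -0.14 to 0.043 after loess, and to 0.013 without d0c, with the transporter PHO89 at -0.42, -0.38 and -0.14 in its 3 peaks and the regulator PHO4 at -0.41. Chromatin remodelers and histone modifiers were at -0.009, with 8 of 37 called higher and 4 lower by DESeq2. SNF11, a subunit of SWI/SNF whose peak also covers the start of TPS2, was at -0.58. IOC3, of a chromatin remodeling complex of Isw1, was at 0.54, and the acetyltransferase RTT109 at 0.45.

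**Figure D5:**
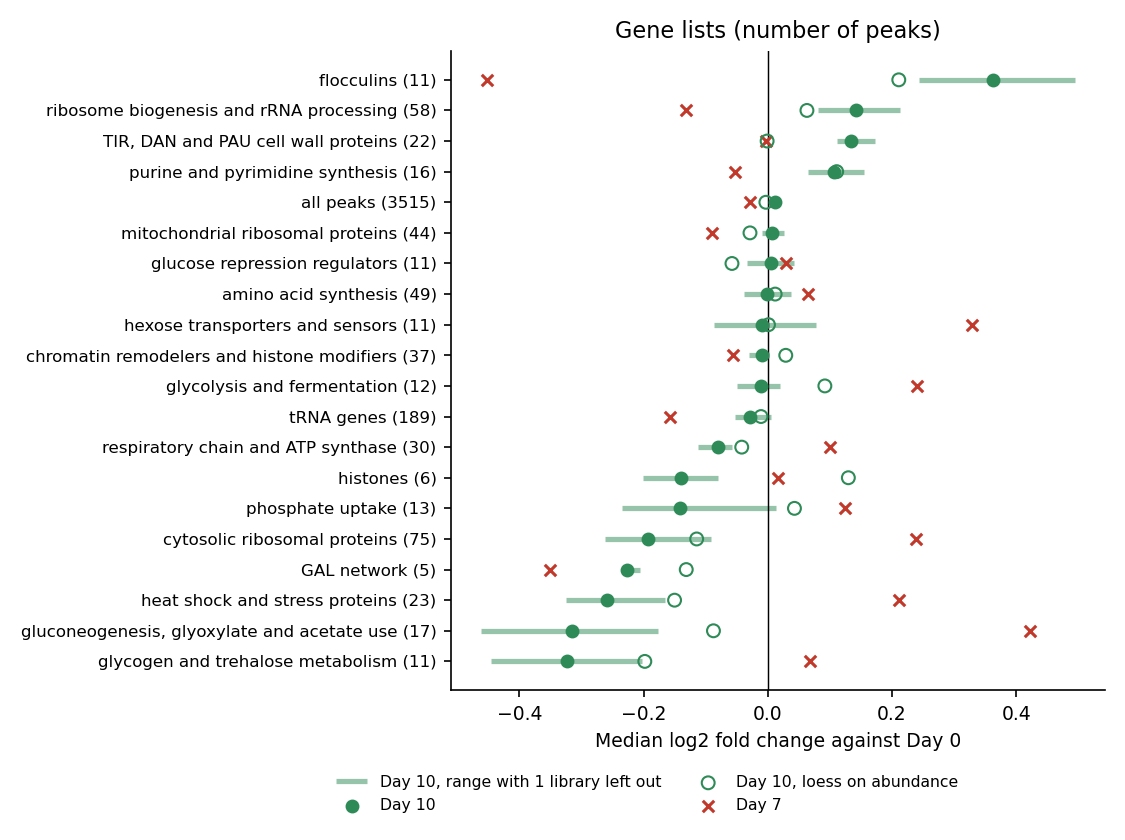
Median log2 fold change of the peaks of 19 gene lists and of all peaks, with the number of peaks in brackets. Filled green points are Day 10 against Day 0, green bars the range when 1 library is left out, open points the values after loess on abundance and red crosses Day 7 against Day 0. Flocculins have the highest Day 10 median (0.36) and glycogen and trehalose genes the lowest (-0.32), and loess brings both nearer to 0.

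Peaks that the annotation classed as exon or transcription end differed more often by 0.5 or more than those classed as promoter. The class does not place a whole peak within a gene, as the exon peaks of JEN1 and STL1 also cover the starts of these genes. Of the 114 peaks in exons 36 (31.6%) differed by 0.5 or more on the log2 scale, 31 of them higher on Day 10, and their median was 0.20. Of 376 peaks at transcription end sites it was 45, and of 3001 promoter peaks 92 (3.07%), with medians of 0.063 and 0.004. The median abundance also differed, at a log2 CPM of 6.43 in exons, 6.67 at transcription ends and 7.51 at promoters, and after loess the medians were 0.12, 0.005 and -0.007. The shares that differed by 0.5 or more were counted without loess. Peaks within 20 kb of a chromosome end had a median of -0.085, against 0.014 farther in.

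Other peaks with large values, chosen after these were seen, were not called by edgeR. The GID10 peak, at a receptor of the GID ubiquitin ligase, came nearest, with 112.2 and 134.8 CPM on Day 0 and 74.13 and 68.73 CPM on Day 10 (-0.77 on the log2 scale, edgeR adjusted p = 0.0574). FRE5, a putative ferric reductase whose peak also covers the start of the cell wall gene FIT3, had 200.4 and 171.2 CPM against 262.7 and 284.5 CPM (0.58, adjusted p = 0.0609 from edgeR). TAF6, a subunit of TFIID, was at 0.70 (adjusted p = 0.0609 from edgeR). All 3 were called by DESeq2 and by the fit of all 10 libraries.

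Among the lowest values were those of YNL194C, a membrane protein of the SUR7 family (-0.82), STL1, a glycerol transporter (-0.81), NNF2 (-0.80) and WHI4 (-0.74). YNL194C had 591.0 and 876.9 CPM on Day 0 and 518.3 and 304.8 CPM on Day 10, so that d0b was nearer to d10 than to d0c. STL1 had 1615 and 2228 CPM against 1303 and 862.5 CPM, with d0b again nearer to d10. The YFR052C-A peak was at -0.77 on Day 7 and at -0.73 on Day 10 (adjusted p = 0.0609 from edgeR and 5.94e-08 from DESeq2). Among the highest were YDR261C-C, a transposon gene (1.301), ECM22, a regulator of sterol synthesis (1.11), EAP1 (0.94) and LRE1 (0.91). The ECM22 and EAP1 peaks are classed as exon and the LRE1 peak as transcription end, and none of them covers a gene start. YDR261C-C had only 11.32 and 11.38 CPM on Day 0, and 20.3% of its windows occur elsewhere in the genome. The rDNA peak of RDN5-1, of which 42.0% of windows are repeated, was at 30200 and 28550 CPM on Day 0 and at 36470 and 38570 CPM on Day 10 (0.37 on the log2 scale, SE 1.35, edgeR adjusted p = 0.85), and DESeq2 called it (adjusted p = 9.2e-09).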

How the data were processed

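The data are ATAC-seq counts of 10 libraries, 2 for each of 5 days, of which d0b, d0c, d10 and d10p were compared. The authors trimmed reads with Trim Galore 0.5.0, mapped them to R64 with Bowtie2 2.2.9, used MACS2 2.1.1 to call peaks for each day, annotated them with HOMER, merged them with bedtools 2.30.0 and deposited the raw counts of featureCounts 1.6.3 for 3515 merged peaks. Their own comparisons used DESeq2 1.30.1. Treatment of duplicate, mitochondrial and multiply aligned reads is not given in the sources used here. The deposited normalized counts were not used. One peak name, shortened in the count table, was matched by its beginning. A peak belongs to the gene that the authors assigned to it, and 3097 of 3515 matched a RefSeq locus. Wide peaks can also cover the starts of other genes, as those of GLK1, PHO4 and GRE1 do.

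Counts were tested with edgeR 4.0.16 in R 4.3.3 (TMM, filterByExpr, which removed no peak, quasi-likelihood test, Benjamini-Hochberg adjustment over all peaks, threshold 0.05), with each pair of days fitted alone. Standard errors are the absolute log2 fold change divided by the square root of F. DESeq2 1.42.0 was an alternative, as were another normalization, loess offsets (span 0.3), filters on low counts, thinning to the smallest library, and each library left out in turn. On simulated data with 200 of 3515 peaks changed by 0.5 on the log2 scale in this comparison, edgeR recovered 185 with 4 false calls. The simulated counts had the same dispersion for all peaks and no gradient with abundance between libraries. The share recovered can therefore not be carried over to the real libraries, which have that gradient. Named peaks are those of the GAL network, those called (up to 10 in each direction), those not returned, 5 of those back with the largest Day 7 change, and up to 3 of each list with the largest change. Others are said to be chosen after their values were seen. The peaks, lists and tests were chosen with earlier results of these data known. Figures were drawn with matplotlib in Python.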

Additional observations from a re-analysis of the deposited data

How the results depend on the processing

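No paired analysis was possible because the Day 0 and Day 10 libraries share no replicate label. The count of 3 called peaks moved to 879 with DESeq2, 508 with all 10 libraries in 1 fit, 405 when that fit had a loess offset, 156 with total counts in peaks as the library size (103 higher and 53 lower, against 2 and 1) and 632 at an adjusted p under 0.1, and ranged from 32 to 882 with 1 library left out. RLE size factors (4 calls), both loess offsets (3 and 2), both count filters, thinning and stricter thresholds left it between 2 and 4. Total counts shifted the median over all peaks, on the log2 scale, from 0.011 to 0.11. The number of peaks not returned, 3, became 17 with total counts, 69 with DESeq2 and 28 with all 10 libraries, and ranged from 3 to 72 with 1 library left out. Intervals within 0.25 of 0 were held by 663 peaks instead of 2432 within 0.5. Loess lowered the SD of changes from 0.22 to 0.18. Called peaks in gene lists numbered 33 with total counts instead of 1 and 7 to 176 with 1 library left out. GAL7 was called at -0.27 by DESeq2 and at -0.28 with all 10 libraries, GAL10 at -0.24 by DESeq2, the GAL2 promoter at -0.26 by DESeq2 and at -0.27 with all 10 libraries, and the shorter GAL2 peak at -0.41 with all 10 libraries and loess. The PGM2 peak was called at -0.48 by DESeq2, at -0.49 with all 10 libraries and at -0.37 with total counts. The loess fit of all 10 libraries, the fit of all 10 for peaks not returned and the threshold of 0.1 were chosen after seeing the data. No called value changed sign. The causes were not tested. Replicates of a day differed by more than counting error, and with 1 library left out the spread of its day is assumed to be that of the other.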

Other observations

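The LEU2 and TIM9 peaks led to a look, made after their values were seen, at the loci where the strain carries marker alleles. The TIM9 peak, which covers the starts of URA3, the orotidine decarboxylase of uracil synthesis, TIM9 and RPR1 on chromosome V (115927 to 118410), had 830.9 and 957.3 CPM on Day 0 and 1113 and 978.5 CPM on Day 10. On the log2 scale it was at 0.24 (SE 0.16, edgeR adjusted p = 0.294), and 0.55 after loess on abundance, when it was called (adjusted p = 0.0226 from edgeR). On Day 7 it was at 0.74 (adjusted p = 0.00309 from edgeR) and on Day 28 at 0.40 (adjusted p = 0.173 from edgeR).

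The other marker loci were near their levels on Day 0. The peak over the start of HIS3 had 342.1 and 349.5 CPM on Day 0 and 340.0 and 344.1 CPM on Day 10 (log2 fold change 0.004). Peaks over the starts of TRP1, CAN1 and ADE2 were at 0.056, -0.16 and 0.009, and the peak at HO, where the reporter was placed, at -0.031. A second, weak peak within ADE2, with 24.62 and 19.62 CPM on Day 0 and 33.63 and 39.48 CPM on Day 10, was at 0.75 (adjusted p = 0.0731 from edgeR). The LEU2 peak at 1.54 is thus the only one of these that was called by edgeR in the 4 libraries without loess. Reads were mapped to the S288C reference, and no sequence of these loci in the strain was analysed here.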
